A study of Mus musculus with 30 samples.

Results

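The 40 genes described here encode the machinery of vesicle transport between the endoplasmic reticulum (ER) and the Golgi apparatus. They were chosen by symbol and function and not by a threshold on expression: 12 genes of the COPII coat and its GTPases, 9 of the COPI coat, 2 Arf GTPases, 5 p24 proteins, 6 cargo receptors, 3 KDEL receptors, the SNARE Sec22b and the 2 transcription factors Creb3l1 and Creb3l2. All 40 were found among the 39179 gene identifiers of the count tables. The ventral prostate (VP) of 30 C57BL/6 mice, 5 in each of 6 groups, was used for RNA sequencing. After weaning the mice ate diets of equal energy whose fat was linseed oil (LO, rich in ω-3 polyunsaturated fatty acids), soybean oil (SO, rich in ω-6) or pork fat (PF, lard, rich in saturated and monounsaturated fatty acids), for 12 or 32 weeks. No group received a chow diet or carried an introduced allele, so each diet was compared with the other diets, and each diet with itself between the ages. The question for these genes was whether the fat source changed their RNA level in the gland at either age, and whether the level changed between the ages on the same diet.

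Proteins made for export enter the ER, fold there and leave it in vesicles built by the COPII coat. Vesicles built by the COPI coat carry escaped ER proteins and the receptors themselves back from the Golgi. The VP epithelium is a secretory tissue that pours proteins into the prostatic fluid, so this traffic is one of its main tasks. Many genes of this machinery are known targets of the unfolded protein response, the programme that cells use when unfolded proteins collect in the ER.

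The members were deeply covered. Each mouse had between 27590631 and 41301707 counts assigned to genes, all 40 members passed the low-count filter in every fit, and the lowest single count of a member was 56, for Sec16b. Levels are given as CPM, the count of a gene per unit of library size, scaled by TMM, a factor that corrects for a few very abundant transcripts. The tissue label was checked by marker genes. The 10 genes listed as secretory genes held between 119270 and 343370 CPM in sum in each mouse. Nearly all of that sum was Sbp and Spink1, while Pate4 and Spinkl of the list were close to absent. The list was not confined to genes known to be particular to the VP, so their low level was not read against the tissue label. Tgm4, also listed, ran from 4.68 to 1292 CPM in LO at 12 weeks. The 6 seminal vesicle genes summed to at most 0.276 CPM. The libraries of the mice numbered 1 had a pattern in common, and 1 of them stood apart. Across the 16605 genes tested, the deviations of these mice from their group means correlated at 0.28 to 0.55 in all 15 pairs between the 6 groups, a description over genes, while among the mice of each other number 5 to 7 of 15 pairs were over 0.1. What these mice share is not given in the sources used here, and its part in the results was not tested. In the PF mouse 1 at 32 weeks, 9 members had their highest level and 14 their lowest level of the 15 mice of that age, and its deviations from its group had an SD of 0.416 (log2) across the members, against 0.0837 to 0.260 in the other 29 mice. The members in which it was highest had a median of 2847 exon bases and those in which it was lowest 7583.5. Its deviation fell with length across the 40 members (Spearman's rho -0.648, a description over genes that share 1 library). In the other 29 mice rho ran from -0.51 (SO mouse 5 at 32 weeks) to 0.63 (PF mouse 4 at 32 weeks), and was 0.50 in the LO mouse 2 at 32 weeks. The deviations of the other PF mice of that age were taken from a mean that held the PF mouse 1. The part of transcript length in the results was not tested. Values without the PF mouse 1 or without all mice numbered 1 are given beside some of the results, and not for each class of members.

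Levels were divided by kilobases of annotated exon, merged over all transcripts of a gene, so the order between genes is approximate. On this scale the Arf GTPase Arf1 was the most abundant member at 220.2 ± 19.8 CPM per kb (SD, n = 30 mice). It was followed by the p24 proteins Tmed2 (192 ± 15.8) and Tmed3 (155 ± 15.8) and the cargo receptor Surf4 (112 ± 13.5). Without division by length, Copa was the highest member at 637 CPM. Mean ± SD overlapped between Arf1 and Tmed2, and did not overlap between Tmed2 and Tmed3 or between Tmed3 and Surf4. The least abundant were the ER exit site protein Sec16b at 0.645 ± 0.168 and Creb3l1, a membrane-bound transcription factor, at 2.53 ± 0.665 CPM per kb. Among the 3 KDEL receptors, Kdelr1 was at 97.5 ± 7.88, Kdelr2 at 45.9 ± 5.68 and Kdelr3 at 26.4 ± 4.997 CPM per kb, an order whose steps were larger than the spread over mice.

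The promoters were searched for known elements of the unfolded protein response, as a description without a test. RefSeq promoters (GRCm38.p6, 250 bases before to 50 after the start) were matched for 34 of the 40 genes. The letters TGACGTGG, a site bound by XBP1 and ATF6, were present on either strand in 7 of these 34 genes (20.6%), against 193 of all 27025 genes of the table (0.714%). The ER stress element (CCAAT, any 9 bases, CCACG) was in 0 of the 34 and in 0.137% of all genes, and its second form (ATTGG, any 1 base, CCACG) in 0 and in 0.0444%. The cyclic AMP element TGACGTCA was in 1 of the 34, Cope (2.94%), and in 2.03% of all genes. Of the 7 genes, Kdelr3 is the single one among the 9 members given mouse by mouse here. A match describes the letters and not a bound site. In PF against SO at 32 weeks, Kdelr3, Copb1, Copb2, Sec24d and Arf1 had a fold change above 0, and Sec23a and Sec16b below it. Whether the matches went with the changes was not tested. The stretches around the 7 matches follow, 5′ to 3′ along the gene, with the motif or its reverse complement in capitals, so that the shared core and the differing flanks can be compared. For Kdelr3, which had the largest fold change of all members between PF and SO at 32 weeks, the stretch is carried on to the last base before the start.
Kdelr3, chr15:79516338-79516407, + strand: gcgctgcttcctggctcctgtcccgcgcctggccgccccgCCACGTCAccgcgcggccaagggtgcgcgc
Copb1, chr7:114254690-114254719, - strand: cccgcccccttCCACGTCAgccaaggactt
Copb2, chr9:98563713-98563742, + strand: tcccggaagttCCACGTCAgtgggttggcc
Sec24d, chr3:123267459-123267488, + strand: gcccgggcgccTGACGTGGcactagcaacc
Sec23a, chr12:59011993-59012022, - strand: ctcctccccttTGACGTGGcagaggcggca
Sec16b, chr1:157506741-157506770, + strand: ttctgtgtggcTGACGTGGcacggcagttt
Arf1, chr11:59228228-59228257, - strand: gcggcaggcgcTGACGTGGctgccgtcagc
Counted from the start listed by RefSeq, itself at 0, the match ran from -30 to -23 in Kdelr3, from -28 to -21 in Copb1, from -26 to -19 in Sec24d and from -44 to -37 in Sec16b. In Copb2 and Sec23a it reached or lay beyond the start, and in Arf1 it lay after 1 of 2 listed starts and before the other.

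At 32 weeks most members lay higher on lard than on either oil, by small amounts and without passing the threshold gene by gene. The members were measured in the same libraries, so counts of members describe these mice and are not replicates. In mean log2 CPM over the members, the PF mouse 1 (7.06) lay below every SO mouse (7.07 to 7.13) and within the LO range (7.05 to 7.21). In PF against SO, edgeR called 0 of 40 members at an adjusted p under 0.05, as it called 0% of the 16218 genes tested. At an unadjusted p under 0.05, 18 members were higher in PF and 0 lower, where 5.71% of all genes were higher in PF. The log2 fold change was above 0 for 34 of 40 members, with a median of 0.18 against -0.0031 over all genes tested. For 8 members every PF mouse lay above every SO mouse, a separation that 0.968% of all genes had: Mcfd2, Kdelr1, Kdelr2, Kdelr3, Sec22b, Arf4, Tmed2 and Tmed10. The DESeq2 Wald test, run as an alternative, called 4 members higher in PF (Mcfd2, Kdelr3, Sec22b and Kdelr1), and 0.413% of the genes to which it gave an adjusted p. In PF against LO, which shares the PF mice, edgeR again called 0 members and 0% of genes. There, 14 members were higher in PF at an unadjusted p under 0.05 (4.48% of all genes), 33 of 40 had a fold change above 0 with a median of 0.13 (0.0061 over all genes), 3 members were apart in every mouse (Mcfd2, Tmed10 and Kdelr2, background 0.432%), and DESeq2 called Mcfd2 alone (background 0.282%). LO against SO at 32 weeks gave 0 members and 0% of genes with edgeR, 0 members with DESeq2 (background 0.0234%), and 0 members at an unadjusted p under 0.05 (3.48% of genes).

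These differences depended on how the libraries were scaled. With library totals alone in place of TMM, the median of all genes moved to -0.15 in PF against SO and -0.17 in PF against LO, and that of the members to 0.022 and -0.045. Relative to all genes the members' median was then 0.17 and 0.13, against 0.18 and 0.13 with TMM. The PF group had the highest mean of the 3 diets in 30 of 40 members at 32 weeks. Without the PF mouse 1, 18 members were higher in PF than SO at an unadjusted p under 0.05, and 20 were higher than LO. Without all mice numbered 1 these counts were 22 and 15, with medians of 0.15 and 0.14 and 0 members called by edgeR. The shares of all genes in these smaller fits are not given here, so the counts stand without a background. In PF against SO at 32 weeks, 4 of 9 listed secretory genes and 4 of 6 adipocyte markers were higher in PF at an unadjusted p under 0.05. Of either list edgeR called 0, and DESeq2 called 1 secretory gene, Sbpl. The adipocyte sum ran from 50.1 to 566 CPM in PF, from 27.98 to 227 in SO and from 47.4 to 289.7 in LO at 32 weeks, and its part in the members' values was not tested.

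**Figure D1:**
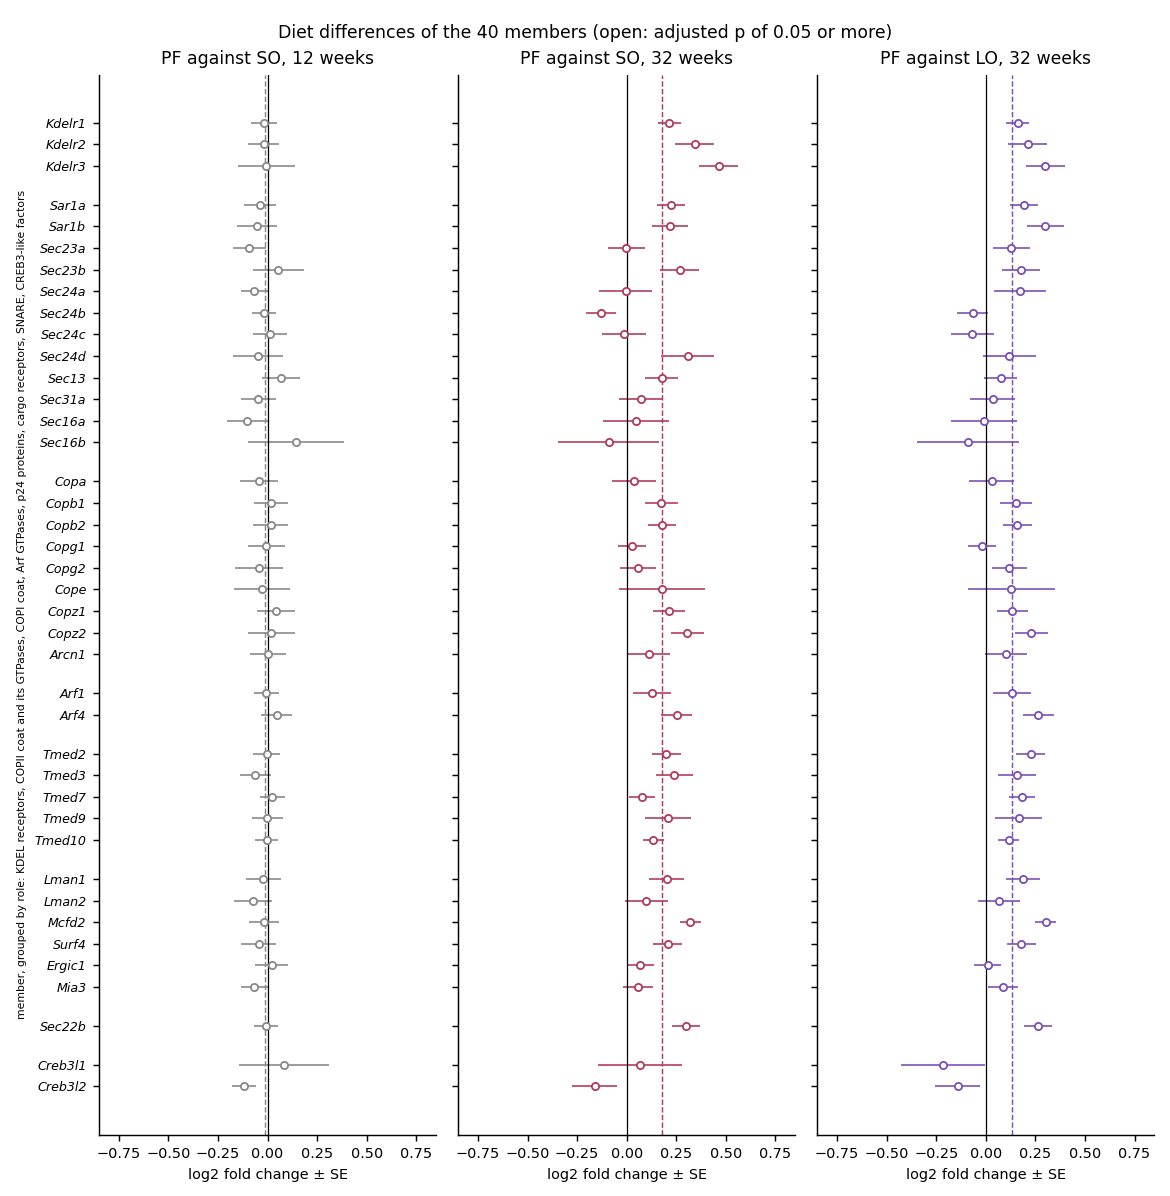
Log2 fold change ± SE (x axis) of each of the 40 members (y axis, grouped by role) in PF against SO at 12 weeks, PF against SO at 32 weeks and PF against LO at 32 weeks, 5 mice per group, with the dashed line at the members' median. All points are open, since no member had an adjusted p under 0.05, and at 32 weeks 34 and 33 of the 40 points lie above 0, against 13 at 12 weeks.

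The KDEL receptors catch ER-resident proteins that have reached the Golgi and return them in COPI vesicles. All of them are named, as read from the picture, in a heatmap of ER stress genes that the study drew from mice of these groups, so their direction is not independent evidence here. Kdelr3 was at 31.6, 37.2, 46.0, 40.9 and 42.8 CPM in the 5 PF mice at 32 weeks, at 29.3, 24.9, 29.4, 30.9 and 31.1 in SO and at 27.2, 33.1, 36.1, 35.1 and 30.8 in LO. Every PF mouse lay above the SO mice, the nearest pair being 31.6 and 31.1, while PF and LO overlapped. The log2 fold change of Kdelr3 in PF against SO was 0.46 (SE 0.0976, 95% interval 0.27 to 0.66), with an adjusted p of 0.204 in edgeR and 0.0155 in DESeq2. At 12 weeks Kdelr3 was at 40.1, 44.985, 41.2, 40.8 and 38.5 CPM in LO, 30.1, 34.7, 36.7, 49.1 and 53.7 in SO and 32.0, 45.8, 46.4, 41.2 and 37.3 in PF, with SO spanning a wider range than the other groups.

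Kdelr1, the most abundant of the receptors, was at 200.4, 174, 189, 193 and 188 CPM in PF at 32 weeks, at 164, 164, 172, 157 and 169 in SO and at 157, 167, 171, 185 and 175 in LO. PF mice lay above all SO mice and overlapped LO, and the fold change in PF against SO was 0.21 (SE 0.0593, adjusted p 0.304 in edgeR and 0.0355 in DESeq2). At 12 weeks its values were 189.9, 188, 184, 181 and 173 in LO, 198, 182, 188, 199 and 211 in SO and 167, 196, 207, 202 and 190.3 in PF. These overlapped between all 3 diets. Grin2d lies on the other strand over Kdelr1, and Ddx17 over Kdelr3. Of the other members given mouse by mouse, Arf4 has Arf4os and Pde12 on the other strand, and Surf4 has Surf2. The strand setting of the counting is not given in the sources used here. Whether reads in such overlaps were counted or left unassigned is therefore not known.

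Kdelr2 was at 111, 82.4, 84.2, 81.4 and 86.4 CPM in PF at 32 weeks, at 80.4, 64.0, 65.0, 71.2 and 76.6 in SO and at 81.0, 76.2, 74.2, 80.9 and 77.0 in LO. Mouse 1 of PF stood far above the other 4, which still lay above every SO and LO mouse by small gaps. The fold change of Kdelr2 in PF against SO was 0.34 (SE 0.0989, adjusted p 0.331) and 0.23 without that mouse (adjusted p 0.354). At 12 weeks the values were 105, 90.5, 94.9, 86.1 and 78.1 in LO, 92.5, 80.3, 78.3, 87.8 and 102 in SO and 91.7, 85.8, 83.3, 89.1 and 82.9 in PF, with LO and SO the wider groups.

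**Figure D2:**
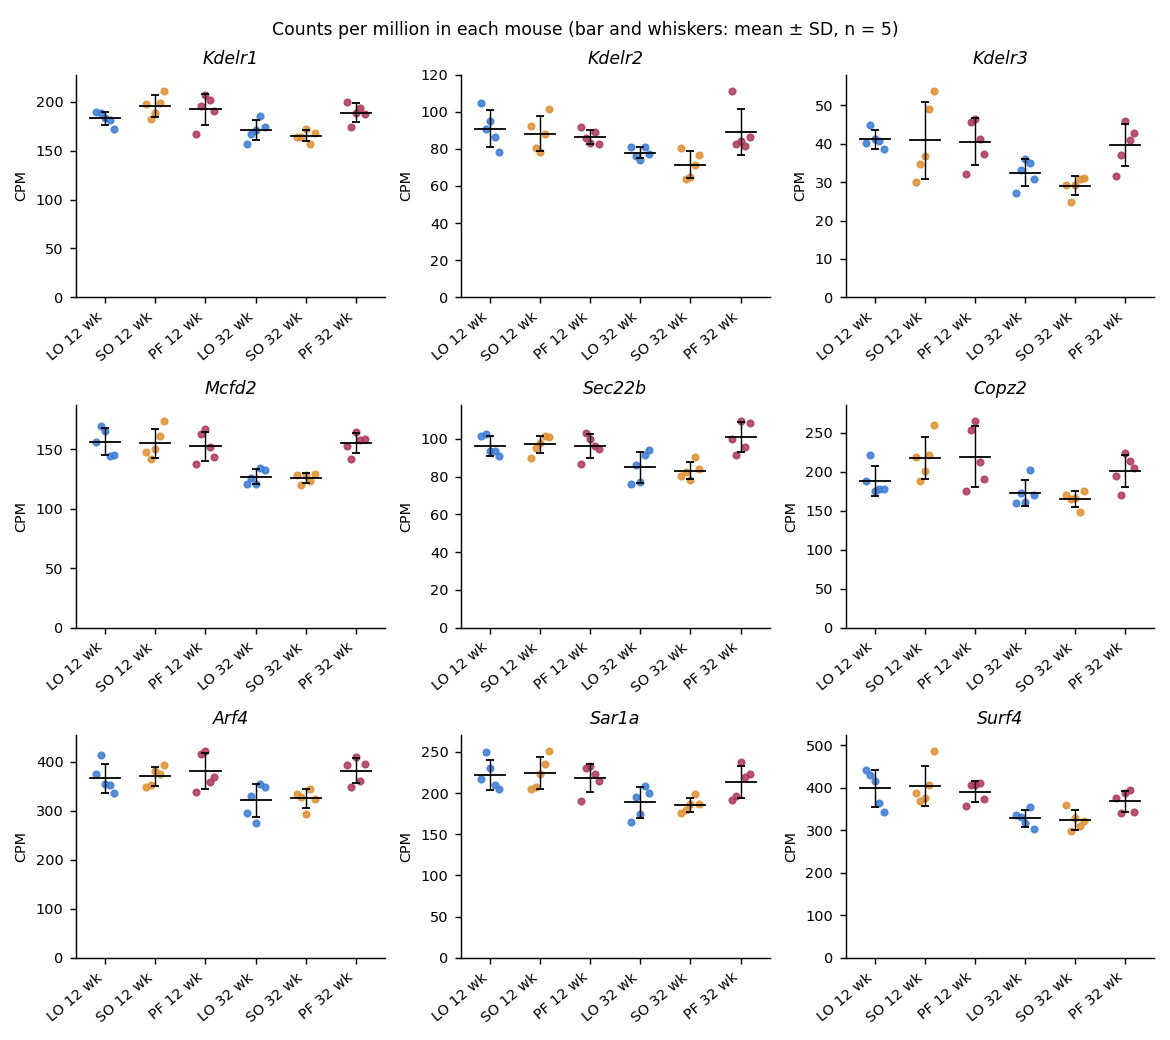
CPM (y axis, from 0) of Kdelr1, Kdelr2, Kdelr3, Mcfd2, Sec22b, Copz2, Arf4, Sar1a and Surf4 in every mouse of the 6 groups (x axis), with the mean ± SD of 5 mice. The members other than the KDEL receptors were chosen by smallest p in PF against SO at 32 weeks, so their separation is not independent evidence. In each panel the PF mean at 32 weeks is above the SO and LO means of that age. The single high PF mouse in the Kdelr2 panel is mouse 1, at 111 CPM.

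Of the cargo receptors, which select folded proteins for COPII vesicles, Mcfd2 had the smallest p of all members. With Lman1 (ERGIC-53) it forms the receptor for glycoproteins such as clotting factors. Mcfd2 was at 153, 142, 164, 158 and 159 CPM in PF at 32 weeks, at 129, 119.9, 129, 124 and 129 in SO and at 121, 126, 121, 134 and 132 in LO. All 5 PF mice lay above all 10 mice on oils. The fold change was 0.32 against SO (SE 0.0537, 95% interval 0.22 to 0.43, adjusted p 0.143 in edgeR and 3.65e-06 in DESeq2). Against LO it was 0.30 (SE 0.0537, adjusted p 0.200 in edgeR and 1.50e-05 in DESeq2). At 12 weeks Mcfd2 was at 157, 169.5, 166, 145 and 146 CPM in LO, 148, 142, 150.4, 161 and 174 in SO and 138, 163, 167, 152 and 144 in PF, so that the 3 diets overlapped, and the PF mice at 32 weeks lay inside that range.

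Its partner Lman1 had means of 183 ± 28.9 CPM in PF, 161 ± 4.90 in SO and 161 ± 12.3 in LO at 32 weeks (SD, n = 5 each), with a fold change of 0.20 in PF against SO (adjusted p 0.435). Surf4, which exports abundant soluble cargo, was at 375, 341, 386, 396 and 343 CPM in PF, 360.2, 298, 328, 310.2 and 321 in SO and 336, 330.0, 318, 355 and 302 in LO at 32 weeks. Its groups overlapped, and the fold change in PF against SO was 0.21 (SE 0.0729, adjusted p 0.385). At 12 weeks Surf4 was at 440.5, 429, 416, 364 and 342 in LO, 387, 368, 376, 407 and 485 in SO and 356, 407, 405, 411 and 373 in PF. The fold changes of the other cargo receptors in PF against SO at 32 weeks were 0.10 for Lman2, 0.067 for Ergic1 and 0.057 for Mia3 (TANGO1, which loads collagens), each within 1 SE of 0.

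The COPII coat is built on the ER by the GTPase Sar1, the inner pair Sec23 and Sec24 and the outer cage of Sec13 and Sec31. Of its 12 genes, 4 were higher in PF than SO at 32 weeks at an unadjusted p under 0.05 (Sar1a, Sar1b, Sec23b and Sec24d), 0 were lower, and the median fold change was 0.059. Sar1a was at 191, 197, 238, 219.7 and 223 CPM in PF, 176, 179, 186, 198 and 187 in SO and 165, 195, 175, 209 and 200.2 in LO. The 3 highest values belonged to PF mice, and the PF mice 1 and 2 lay within the range of SO. The fold change of Sar1a was 0.22 (SE 0.0707, adjusted p 0.349). At 12 weeks it was at 217, 250.2, 230.5, 209 and 204 in LO, 205, 208, 223, 235 and 250.53 in SO and 190.0, 230.1, 232, 223 and 215 in PF. The paralogous cargo adaptors differed in value: Sec24d was at 0.31 (SE 0.133), Sec24a at -0.0055 (SE 0.132), Sec24c at -0.013 (SE 0.109) and Sec24b at -0.13 (SE 0.0774), and the differences between them were not tested. The PF mouse 1 was the lowest of 15 in all 4 of these genes, and in Sec23b, Sec31a, Sec16a and Sec16b too. Sec24a was at 37.1 CPM in it against 55.2 to 69.5 in the other PF mice, and Sec24c at 143 against 223 to 259. Fold changes and the COPII median without this mouse are not given here, so the low median and the differences between paralogs may rest on it. Likewise Sec23b was at 0.27 and Sec23a at -0.0013. The cage genes Sec13 (0.18) and Sec31a (0.072) and the exit site scaffolds Sec16a (0.046) and Sec16b (-0.090) had an unadjusted p of 0.05 or more.

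The COPI coat is recruited to Golgi membranes by Arf GTPases. All 9 coat genes had a fold change above 0 in PF against SO at 32 weeks, with a median of 0.17, and 3 had an unadjusted p under 0.05 (Copz2, Copz1 and Copb2). Copz2, 1 of 2 zeta subunits, was at 195, 170.4, 224, 213 and 204 CPM in PF, 169.9, 166, 166, 148 and 175 in SO and 161, 172, 161, 202 and 170.5 in LO. The 3 highest values were PF, and the PF mouse 2 lay within SO. Its fold change was 0.31 (SE 0.0814, adjusted p 0.289), and Mir152 lies within the gene on the same strand. At 12 weeks Copz2 was at 189, 221, 175, 178 and 178 in LO, 219, 189, 201, 221 and 259.6 in SO and 176, 254, 265, 212 and 191 in PF, with the widest spread in PF. The other subunits ran from 0.027 for Copg1 and 0.038 for Copa to 0.21 for Copz1.

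Arf4, which acts at the early Golgi, was at 392, 349, 411, 361 and 396 CPM in PF, 335, 329, 293, 345 and 325 in SO and 296, 331, 275, 354 and 349 in LO at 32 weeks. Every PF mouse lay above every SO mouse, while 1 LO mouse lay above the lowest PF mouse and another was level with it. The fold change was 0.25 (SE 0.0786, adjusted p 0.349). At 12 weeks it was at 375, 413, 354, 352 and 336 in LO, 349, 353, 380.2, 374 and 394 in SO and 338, 416, 421, 359 and 368 in PF, overlapping throughout. Arf1 was at 0.13 (SE 0.0964) in PF against SO at 32 weeks.

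Sec22b, the SNARE that fuses vesicles between ER and Golgi, was at 100.05, 91.2, 109, 95.9 and 108 CPM in PF, 80.5, 82.6, 78.3, 90.3 and 84.1 in SO and 75.9, 86.0, 77.1, 91.7 and 94.0 in LO at 32 weeks. PF lay above SO in every mouse, with 91.2 as the lowest PF and 90.3 as the highest SO value, and overlapped LO. The fold change was 0.30 (SE 0.0714), with an adjusted p of 0.278 in edgeR and 0.0281 in DESeq2. At 12 weeks Sec22b was at 101, 102, 93.7, 93.4 and 90.8 in LO, 89.9, 94.98, 97.8, 101 and 101 in SO and 86.6, 103, 99.7, 96.3 and 94.7 in PF. Among the p24 proteins, which sort cargo in both directions, Tmed2, Tmed3 and Tmed10 had an unadjusted p under 0.05 in PF against SO (0.20, 0.24 and 0.14), while Tmed9 (0.21) and Tmed7 (0.077) did not. Tmed10 had the smallest SE of all members (0.0528), with means of 409 ± 13.0 CPM in PF and 378 ± 12.4 in SO.

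Creb3l1 and Creb3l2 are transcription factors held in the ER membrane until cleaved, and they are known to drive genes of the secretory pathway. Creb3l2 was at -0.16 (SE 0.113, adjusted p 0.627) and Creb3l1 at 0.068 (SE 0.211, adjusted p 0.930) in PF against SO at 32 weeks. At 12 weeks Creb3l2 had the smallest p of the members in PF against LO, with means of 159.6 ± 8.13 and 184 ± 11.5 CPM, a fold change of -0.20 (SE 0.0603) and an adjusted p of 0.389.

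At 12 weeks 0 members were called between diets. The edgeR test called 0% of 15873 genes in PF against SO, in PF against LO and in LO against SO. DESeq2 called 0 members in each too, while it called 1.31%, 0.522% and 0% of the genes with an adjusted p. In PF against SO, 0 members had an unadjusted p under 0.05, where 7.99% of genes did, 13 of 40 had a fold change above 0 and the median was -0.012. In PF against LO 5 members did, with 9.24% of genes as background: Ergic1 was higher in PF (0.18) and Creb3l2, Sec16a, Sec24a and Sec24d were lower (-0.20, -0.30, -0.19 and -0.32). In LO against SO 2 members did, with 4.28% of genes as background, Tmed3 (-0.19) and Sec24d (0.27).

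Between 12 and 32 weeks, members were called lower on both oils. Age, time on the diet and any batch that differed between those times cannot be told apart in these comparisons. On SO, 13 of 40 fell at an adjusted p under 0.05 and 0 rose, where edgeR called 1.22% of 16605 genes lower at 32 weeks: Mcfd2, Ergic1, Surf4, Lman1, Kdelr1, Kdelr2, Kdelr3, Sec13, Sar1a, Copz2, Copb2, Tmed10 and Sec22b. The median log2 change of the members was -0.21 against -0.0044 over all genes, 38 of 40 were below 0, and 11 members lay lower in every 32-week mouse than in every 12-week mouse (2.31% of all genes). All 3 KDEL receptors and 4 of 6 cargo receptors were among the 13, against 2 of 12 COPII and 2 of 9 COPI genes. No test compared the classes. In 10 fits that each left out 1 mouse, Kdelr1 was called in 9, Kdelr3 in 6 and Kdelr2 in 4. The changes were -0.49 for Kdelr3 (SE 0.129, adjusted p 0.0231), -0.40 for Copz2 (SE 0.104, adjusted p 0.0206), -0.32 for Surf4 (SE 0.0788, adjusted p 0.0148) and -0.30 for Mcfd2 (SE 0.0630, adjusted p 0.00734). The smallest called change was that of Tmed10, -0.15 (adjusted p 0.0483), and Ergic1 went from 396 ± 21.7 to 320.1 ± 20.4 CPM.

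On LO, 4 members fell and 0 rose, where 0.958% of genes were called lower: Mcfd2 (-0.30, adjusted p 0.0148), Lman1 (-0.40, adjusted p 0.0201), the collagen receptor Mia3 (-0.30, adjusted p 0.0261) and Sec24a (-0.42, adjusted p 0.0376). Lman1 and Mcfd2, the parts of 1 receptor, were called on both oils, and Lman1 rested on single mice more than Mcfd2 did. With only the LO mice in the fit, 0 members were called lower on LO. Lman1 went from 213 ± 20.8 to 161 ± 12.3 CPM, and Sec24a from 68.0 ± 4.69 to 50.7 ± 5.59. The members' median change on LO was -0.19, 36 of 40 were below 0, and 9 were lower in every 32-week mouse (2.26% of all genes). The COPII genes had a median of -0.29 on LO and -0.20 on SO, and the KDEL receptors -0.22 and -0.30. DESeq2 called 15 members lower on SO and 9 on LO, and 1.94% and 2.22% of genes.

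On PF, edgeR called 0 members lower, against 0.012% of genes, and DESeq2 called 0, against 0.131%. At an unadjusted p under 0.05 there were 3, where 5.23% of all genes were lower, Ergic1 (-0.27, SE 0.0743), Sec13 (-0.22) and Sec31a (-0.23), and the members' median was -0.061, or -0.0071 without the PF mouse 1. Mcfd2 was at 0.025 (95% interval -0.099 to 0.15) and Kdelr3 at -0.031 (-0.28 to 0.22). That members were called on the oils and not on PF does not show that the diets differed. The test of that difference, whether PF minus SO changed between 12 and 32 weeks, called 0 members and 0% of genes in edgeR, and so did the same test for PF minus LO and for LO minus SO. DESeq2 called 0 members in each, against 0.224%, 0.0702% and 0% of genes. At an unadjusted p under 0.05 there were 8, 11 and 3 members, against 9.49%, 7.79% and 3.33% of genes. Mcfd2 had the smallest p in the tests with PF, with a difference of 0.32 against SO (SE 0.0891, adjusted p 0.237) and 0.32 against LO (SE 0.0890, adjusted p 0.452).

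**Figure D3:**
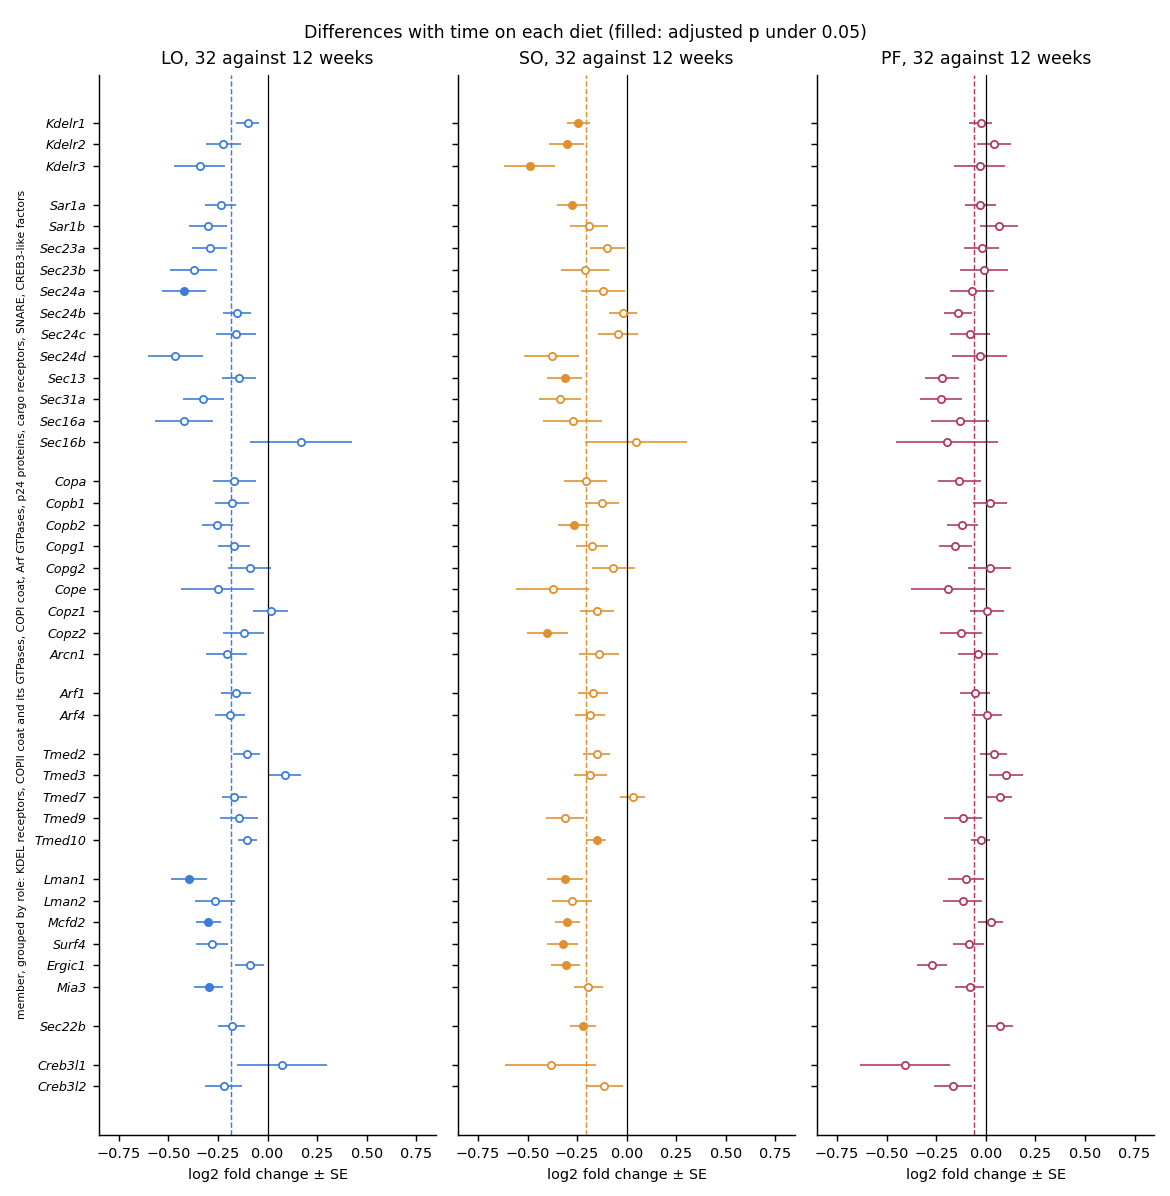
Log2 fold change ± SE at 32 against 12 weeks (x axis) of each member (y axis, grouped by role) on LO, SO and PF, 5 mice per group, with filled points for an adjusted p under 0.05 and a dashed line at the members' median. On SO 13 points and on LO 4 points are filled, all below 0, and on PF none is filled.

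The calls over time rested on the scaling and on single mice. With library totals alone the median of all genes moved to 0.19 on SO and 0.16 on LO, 0 members were called lower on either oil, and Tmed7 was called higher on SO, while the members' median relative to all genes was -0.20 on SO and -0.18 on LO, against -0.20 and -0.17 with TMM. The number of members called on SO was 1 without the SO mouse 4 at 32 weeks, 3 without the SO mouse 5 at 12 weeks and 5 to 14 without any other single mouse. On LO it was 0 without the LO mouse 2 or 3 at 12 weeks or the LO mouse 3 at 32 weeks, and 1 to 7 without any other. Mcfd2 was called on SO in all 10 such fits and on LO in 7 of 10, Lman1 in 3 and 6 of 10, and Mia3 and Sec24a on LO in 3 of 10 each. Without all mice numbered 1, 20 members were called lower on SO and 5 on LO. The shares of all genes called in the fits that leave out mice are not given here, so these counts stand without a background.

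Several gene lists were examined beside the members. The summed level of the 10 listed secretory genes, products that this machinery exports, ran from 234670 to 322370 CPM in SO at 12 weeks and from 151920 to 177450 at 32 weeks. In LO it ran from 212620 to 327920 and from 119270 to 205880. In PF it ran from 184770 to 343370 and from 136070 to 306850. Nearly all of the sum was Sbp and Spink1. Sbp had means of 218730 and 112330 CPM on SO at 12 and 32 weeks and 193620 and 110170 on LO, and Spink1 54921 and 38992 on SO and 46961 and 32337 on LO. Of the 9 genes tested, Sbp and Sbpl fell on both oils and 0 on PF, and Spink1 had adjusted p-values of 0.158 on SO and 0.128 on LO. Others of the list, named after their values were seen, had higher means at 32 weeks on both oils, with none called: Pbsn went from 2707.9 to 3730 CPM on SO and from 2844.8 to 4015 on LO, Defb50 from 4018 to 5096 and from 3796 to 5106, and Msmb from 2711 to 2916 and from 2714 to 2909.5. The means of the list thus differed in direction. Immune markers were higher at 32 weeks on the oils, where edgeR called 871 of 16605 genes higher on SO and 289 on LO. All 6 T cell markers, 7 of 8 plasma and B cell markers and 3 of 7 macrophage markers rose on SO, and 3 of 8 plasma and B cell markers rose on LO. Of the macrophage markers on LO edgeR called 0, with 7 higher at an unadjusted p under 0.05 and 5 called by DESeq2, while on PF 0 markers of any of these types were called by either tool. At 12 weeks DESeq2 called 4 of 7 macrophage markers, 1 of 6 T cell markers (Cd3d) and 1 of 8 plasma and B cell markers (Jchain) higher in PF than SO. Calls on the oils and none on PF do not show that the diets differed. For PF minus SO, the test of that difference called 0 of these markers in edgeR and Cd3d alone in DESeq2. The plasma and B cell sum ran from 43.8 to 59.9 CPM in SO at 12 weeks and from 78.6 to 487 at 32 weeks, in LO from 37.3 to 97.2 and from 105 to 847, and in PF from 34.5 to 498 and from 261 to 718. The T cell sum ran from 1.88 to 2.41 and from 4.68 to 30.6 in SO, from 1.65 to 7.70 and from 4.27 to 9.17 in LO, and from 2.80 to 9.37 and from 4.87 to 9.82 in PF. Basal epithelial markers rose in 3 of 4 on LO and 2 of 4 on SO, and 1 of 5 endothelial markers rose on SO, with 0 called on LO by edgeR or DESeq2 and 3 at an unadjusted p under 0.05. Of 7 smooth muscle, 7 fibroblast and 6 adipocyte markers edgeR called 0 on any diet, with 3 fibroblast markers higher at an unadjusted p under 0.05 on LO and 1 on SO, 1 smooth muscle marker lower on LO and 3 on PF, and DESeq2 calling 2 fibroblast markers (Dcn and Lum) on LO. The summed level of the 8 luminal epithelial markers stayed between 2829.9 and 4009 CPM in all mice, and 0 of the 8 were called on any diet by edgeR or DESeq2, with 1 at an unadjusted p under 0.05 on LO and 0 on SO and PF. In bulk tissue, fewer cells of a type and less RNA per cell cannot be told apart, and the part of cell mixture in the members' changes was not tested.

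**Figure D4:**
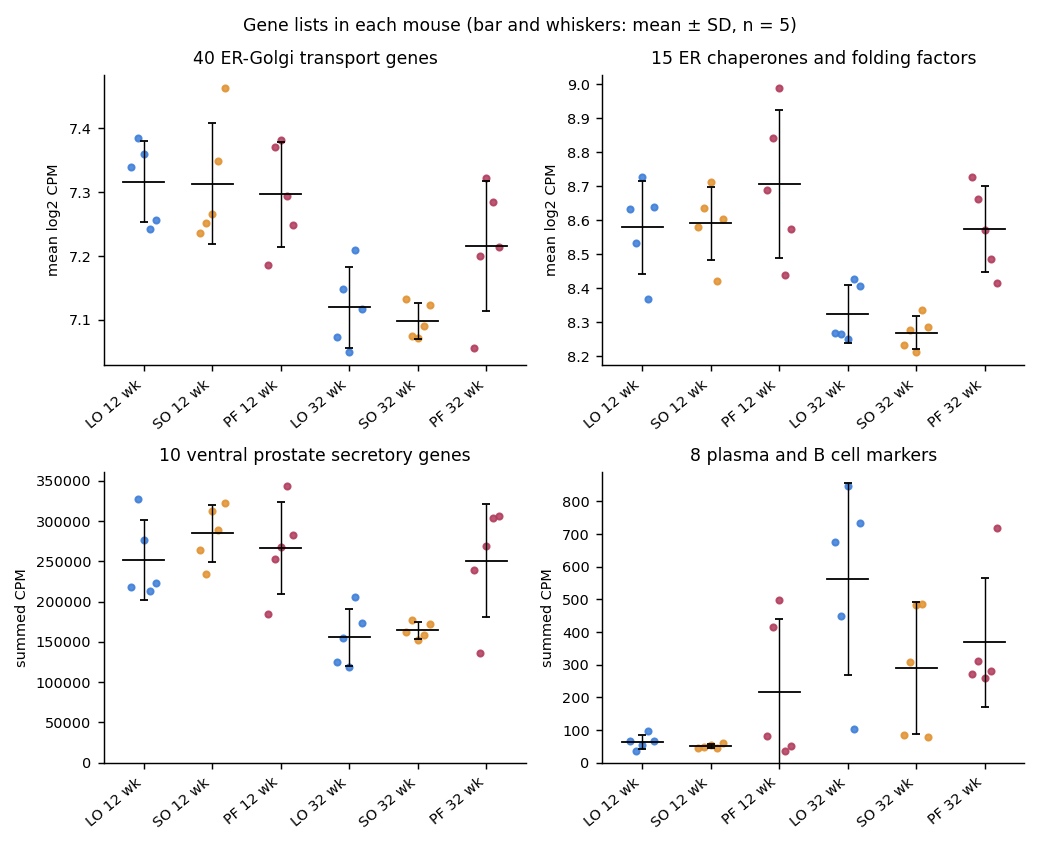
Mean log2 CPM of the 40 members and of 15 ER chaperones and folding factors, and summed CPM of 10 listed secretory genes and of 8 plasma and B cell markers (y axes), in every mouse of the 6 groups (x axes), with the mean ± SD of 5 mice. The panel title of the secretory genes names the ventral prostate, though not all of them are known to be particular to it. The members' mean is 7.10 in SO, 7.12 in LO and 7.22 in PF at 32 weeks, against 7.30 to 7.32 in the 3 groups at 12 weeks, and the mean sum of the secretory genes, which Sbp and Spink1 dominate, is lowest in SO and LO at 32 weeks.

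The mean log2 CPM over the 40 members was 7.22 ± 0.102 in PF, 7.10 ± 0.0281 in SO and 7.12 ± 0.0631 in LO at 32 weeks (SD, n = 5), and the difference in spread was not tested. The PF mouse 3 was the highest of the 15 mice in 17 members, among them Kdelr3, Mcfd2, Sec22b, Copz2, Arf4 and Sar1a. The lowest of the 6 group means was that of SO at 32 weeks in 26 of 40 members, and the highest was that of LO at 12 weeks in 19. The members most like Kdelr3, by Spearman's rho of log2 CPM over the 30 mice after each group mean was subtracted, were Sar1a (0.805), Mcfd2 (0.747), Sec23b (0.732), Arcn1 (0.718) and Sec24c (0.714). Those most like Creb3l1 were Tmed9 (0.638), Lman2 (0.547), Cope (0.518), Kdelr2 (0.466) and Sec16b (0.394). These are descriptions over mice that share libraries with all members and carry no test.

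The rest of the pathway was taken from lists of 71 other tested genes of ER-Golgi transport and 15 chaperones and folding factors of the ER. In PF against SO at 32 weeks, 56 of the 71 had a fold change above 0 with a median of 0.15, and 22 had an unadjusted p under 0.05, all higher in PF. At that p, 5.71% of all genes were higher in PF. The edgeR test called 0 of the 71. DESeq2 called 3, against 0.413% of the genes to which it gave an adjusted p, and these 3 had the smallest p-values in edgeR too. They were the SNARE Bet1 (0.34, SE 0.0712), the exit site protein Tfg (0.28, SE 0.0670) and Yipf5 (0.33, SE 0.0795), with adjusted p-values of 0.204, 0.278 and 0.278. All 15 chaperones were above 0 with a median of 0.29, and 11 had an unadjusted p under 0.05. The study's heatmap names several of these chaperones too, so they are not independent evidence. The edgeR test called 0 chaperones and DESeq2 6. Leading them were Manf (0.57, SE 0.105, adjusted p 0.204), Hspa5, the chaperone BiP (0.54, SE 0.109, adjusted p 0.204), and Dnajb9 (0.52, SE 0.130, adjusted p 0.278). Over time on SO, 8 of the 71 fell (among them the SNARE Bet1l, Yipf2, Yif1a, Arfgap1, Arfgap3 and the tether Uso1), and 3 of the 15 chaperones fell (Creld2, Hyou1 and Dnajc3), with 0 rising in either list. On LO, 4 of the 71 fell (Bet1l, Bet1, Rint1 and Preb) and 3 chaperones fell (Herpud1, Hyou1 and Dnajc3). Over all genes tested, edgeR called 1.22% lower on SO and 0.958% on LO. On PF 0 of either were called by edgeR or DESeq2, where 0.012% and 0.131% of genes were called lower. There, 10 of the 71 and 6 of the 15 had an unadjusted p under 0.05. At that p, 827 of all 16605 genes were higher and 869 lower. Creb3, a relative of the 2 CREB3-like members, was at 0.22 (SE 0.0680, adjusted p 0.349) in PF against SO at 32 weeks.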

How the data were processed

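The ventral prostate of 30 mice was sequenced as paired 100-base reads from TruSeq Stranded mRNA libraries. The authors deposited raw counts of reads per Ensembl gene, 1 file per mouse. The submitters' processing notes name TopHat, TopHat2, HTSeq, DESeq2 and GRCm38.p6. The annotation release and the strand setting of the counting are not given in the sources used here. HTSeq leaves reads shared by several genes unassigned. Such ambiguous reads were between 1.01% and 1.41% of the reads on genes, on no gene or ambiguous. Reads on no gene were between 7.93% and 15.1% of the same total. A further 6184219 to 10220731 counts per mouse were not uniquely aligned and lay outside that total. These lines were left out of library sizes. No pair of libraries within a group was a duplicate. The labels number the mice of each group from 1 to 5, and p-values measure the spread between these mice.

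Genes were filtered with filterByExpr, scaled by TMM and tested with the quasi-likelihood F test of edgeR 4.0.16 (R 4.3.3, two-sided). The 3 diets of a time were fitted together. The 6 groups were fitted together for the comparisons over time and for the difference of differences. Adjusted p-values are Benjamini-Hochberg values over all genes tested, and called means an adjusted p under 0.05. A standard error is the absolute log2 fold change divided by the square root of F. Intervals at 95% multiply it by the quantile of the normal distribution. They are thus narrower than intervals from the finite degrees of freedom of the F test. Log2 CPM used a prior count of 2. Shares of genes called by DESeq2 are over the genes to which it gave an adjusted p. Alternatives were DESeq2 1.42.0, other scaling and filters, other sets of groups in the fit, the replicate number as a term, and leaving out mice. Tests were first run on simulated data. Gene names, exon lengths and overlaps came from GENCODE M21 on GRCm38, and promoters from RefSeq. Figures were drawn with matplotlib 3.10.9.

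The 40 genes and all other lists were chosen with earlier results of these data known. Values in every mouse were given for the 3 KDEL receptors and, since edgeR called 0 members between diets, for the 6 members with the smallest p in PF against SO at 32 weeks. Of other lists, up to 3 genes each were named by smallest p. Of 95 further pathway genes, Bet3l was not matched. A comparison of the KDEL receptor proteins was not done.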

Additional observations from a re-analysis of the deposited data

Results flagged for a closer look

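The CPM of the 9 members given mouse by mouse and the mean over all 40 members were examined in each of the 6 groups, 60 sets of 5 mice, for a mouse whose gap to its nearest neighbour took up more than 0.71 of the group's range. Chance gives such a gap in about 1 in 20 groups, and 3 were found. Kdelr2 in the PF mouse 1 at 32 weeks was at 111.17 CPM, with a gap of 0.832 of the range. Copz2 was at 221.36 CPM in the LO mouse 2 at 12 weeks (0.713) and at 201.84 CPM in the LO mouse 4 at 32 weeks (0.712). These are given as values only.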

How the results depend on the processing

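Relative log expression factors gave counts of called members within 1.5 times those of TMM in every comparison, and the call of each of the 26 gene results checked was the same. Library totals alone changed most. They moved the members' median to 0.022 in PF against SO and -0.045 in PF against LO at 32 weeks, to -0.014 over time on LO and -0.0081 on SO, and to -0.016 and -0.0042 in the change of PF against SO and against LO between the times. Under them 0 members were called over time on LO and 1 on SO, and Tmed10 on SO turned to 0.045. DESeq2 called 4 members in PF against SO and 1 in PF against LO at 32 weeks, and 9 over time on LO. With only the 2 groups compared in the fit, 0 were called over time on LO and 8 on SO. Without a low-count filter 2 were called on LO, and at an adjusted p under 0.1 there were 12. Why these counts moved was not tested.

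The mice share replicate numbers. Deviations of same-numbered mice from their group means had a mean correlation of 0.056 at 12 weeks, 0.13 at 32 weeks and 0.14 across times, over 0.1 in 5 of 15, 10 of 15 and 24 of 45 pairs, so the numbers as a whole were not taken as a pairing. All 15 pairs of mice numbered 1 were between 0.28 and 0.55, against 5 to 7 of 15 pairs over 0.1 for each other number. With the replicate block, edgeR called 9 members lower over time on LO, 14 on SO and 0 in all other comparisons. DESeq2 with the block, chosen after seeing the data, called 5 in PF against SO and 3 in PF against LO at 32 weeks, 17 over time on LO, 1 on PF and 2 in the change of PF against LO. For the fits with the block, the shares of all genes called are not given here.

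Leaving out mice, singly or by number, left between 0 and 20 members called on SO (0 without all mice numbered 4) and between 0 and 8 on LO. It left 0 called in all diet comparisons, on PF and in the tests between times, where the median of LO against SO ran from -0.045 to 0.092. The 26 gene results checked kept their direction in these fits. Among members not called over time, Sec16b (-0.092 to 0.20), Sec24b and Tmed7 on SO and Copg2 and Creb3l1 on LO changed sign without 1 mouse. The adjusted p of Mcfd2 in PF against SO at 32 weeks ran from 0.0559 to 0.793. All 40 members passed the low-count filter in every comparison, and each group held 5 mice.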
